A study of Mus musculus with 6 samples.

Results

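The genes described here encode the proteins of the ribosome, both the cytosolic ribosome and the ribosome of mitochondria. Members were chosen by gene symbol, as the genes whose symbol begins with Rpl, Rps, Rplp, Rpsa, Mrpl or Mrps followed by the number of the protein, with symbols ending in -ps, a mark of pseudogenes, left out, and 145 of the 15703 genes listed met this rule. Of these, 68 were cytosolic, 37 in the large and 31 in the small subunit. The other 77 were mitochondrial, 48 in the large and 29 in the small subunit. Subunits were assigned by the start of the symbol alone, which need not be the subunit that holds the protein. The rule reads symbols only, although it was set with earlier results of these data known, and all 145 were tested, with no filter on low values.

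RNA was sequenced from the whole neocortex of newborn C57BL/6 mice at postnatal day 0. The 3 conditional knockout (cKO) samples carried floxed Tcf4 alleles on both chromosomes and 1 copy of Emx1Cre, and the 3 other samples were wild type (WT). The study asked how gene expression changes once Tcf4, a basic helix-loop-helix transcription factor, is lost. Emx1Cre acts in the dorsal forebrain precursors that give rise to excitatory neurons and later to glia, so interneurons, microglia and blood vessels, which come from elsewhere, keep Tcf4. The labels do not say whether the WT mice carried floxed alleles or Cre. The tissue was bulk, so fewer cells of a type and less RNA per cell cannot be told apart.

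The cytosolic ribosome makes most proteins of a cell: its small subunit reads the messenger RNA and its large subunit forms the peptide bonds. Ribosomal protein messengers begin with a run of pyrimidines, the terminal oligopyrimidine tract, through which their translation follows nutrient and growth signals passing through mTOR, and cells keep the supply of the many proteins in balance. The mitochondrial ribosome makes only the respiratory chain proteins encoded by mitochondrial DNA, but all of its own proteins are encoded in the nucleus. In the developing cortex, dividing progenitors have a high demand for ribosomes.

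Each library held 25.3 to 28.7 M reads (M, 1e6) in listed genes, as recovered from the deposited FPKM values (a read level divided by the gene's exon length and the size of the library). Tcf4, the targeted gene, had 56.5, 60.6 and 55.3 FPKM in cKO libraries, against 71.2, 75.6 and 75.3 FPKM in WT libraries, and every cKO library lay below every WT library (log2 change -0.36, SE 0.0617, limma adjusted p = 0.00411). Over all genes, 1134 (7.22%) rose and 1349 (8.59%) fell in cKO, with a threshold of 0.05 on the adjusted p (limma on log2(FPKM + 1), Benjamini-Hochberg adjustment, n = 3 per group), and with every library scaled to the same FPKM sum the split became 1773 higher and 1051 lower. Defining markers of the neocortex were present, with the 8 projection neuron markers summing to 714 to 753 FPKM in cKO and 677 to 723 FPKM in WT libraries. The library cKO 1 and the library WT 3 stood apart from the other libraries in the ribosomal protein genes, and the main counts, medians and calls are given with and without them.

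The promoters below show the start sites of called cytosolic members and of the mitochondrial members with the lowest p. Each is 100 bases, from 80 bases before the annotated start to 20 bases from it, 5′ to 3′ on the strand of the gene, from RefSeq on build GRCm38.p6. The capitals mark a run of at least 6 pyrimidines that touches the bases within 5 of the start. Such a run was in the window of Rplp2 and of Rps2, and the other 4 printed windows have none at that place. Of the 3 windows listed for Mrpl2, only that with the lowest coordinate is printed. The starts used in these samples were not measured. A window without the run, here or in the counts below, may therefore belong to a messenger that begins with one. The called member Rps29 had no entry.
Rplp2, chr7:141447571-141447670, plus strand: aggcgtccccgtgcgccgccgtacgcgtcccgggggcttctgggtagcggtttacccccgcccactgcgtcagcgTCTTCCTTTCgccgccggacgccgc
Rps2, chr17:24719983-24720082, plus strand: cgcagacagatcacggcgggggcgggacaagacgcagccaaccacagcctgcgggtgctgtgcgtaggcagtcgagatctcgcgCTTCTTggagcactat
Rps13, chr7:116334171-116334270, minus strand: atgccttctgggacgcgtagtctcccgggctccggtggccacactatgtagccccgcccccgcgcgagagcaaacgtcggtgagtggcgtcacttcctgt
Rps28, chr17:33824543-33824642, minus strand: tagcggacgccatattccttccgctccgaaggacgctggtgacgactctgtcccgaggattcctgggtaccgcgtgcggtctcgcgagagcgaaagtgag
Mrpl2, chr17:46646141-46646240, plus strand: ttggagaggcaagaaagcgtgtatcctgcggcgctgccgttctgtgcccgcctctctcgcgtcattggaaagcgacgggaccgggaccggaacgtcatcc
Mrpl57, chr14:57826159-57826258, plus strand: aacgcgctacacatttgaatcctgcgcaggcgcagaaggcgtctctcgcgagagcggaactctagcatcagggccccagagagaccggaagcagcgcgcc

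Windows of 300 bases, 250 before to 50 after the start, were matched for 51 cytosolic genes (61 windows) and 68 mitochondrial genes (74 windows) and compared as a description with all 32851 windows. The pyrimidine run at the start was in 45.9% of the cytosolic windows, 24.3% of the mitochondrial windows and 20.2% of all windows. On both strands, CCGGAAG, the core bound by ETS factors, was in 36.1%, 33.8% and 8.86% of the same sets, and AAGATGGC, the core bound by YY1, in 11.5%, 16.2% and 2.75%. GGGCGG, bound by SP factors, was in 57.4% of cytosolic, 52.7% of mitochondrial and 35.7% of all windows. The E-box CANNTG, the general letters read by basic helix-loop-helix factors such as Tcf4, was in 47.5% of cytosolic, 63.5% of mitochondrial and 72.3% of all windows. Its forms CAGGTG or CACCTG, each counted also within CANNTG, were in 9.84%, 13.5% and 20.2%, and TATAAA was in 9.84%, 6.76% and 13.6%. A match describes the letters and is not a bound site.

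Most cytosolic ribosomal protein transcripts had slightly lower values in cKO libraries, but 63 of the 68 did not pass the test and the size of the difference varied with the libraries included. The log2 change was below 0 for 68 of 68 members, against 7796 of 15703 over all genes, with a median of -0.19 against 0.0017 over all genes. The median was -0.11 without WT 3, and -0.06, with 54 of 68 below 0, without both WT 3 and cKO 1. The SD of the library medians within a group was 0.116 on the same scale. The log2 change ran from -0.34 for Rps29 to -0.04 for Rpl23a, and 10% to 90% of members lay between -0.27 and -0.11. Of the 68, 5 were called lower (Rplp2, Rps13, Rps28, Rps29 and Rps2) and 0 higher (limma, adjusted p under 0.05), a share of calls close to the 8.59% over all genes. At an unadjusted p under 0.05, 35 were lower and 0 higher, against 16.3% and 15.8% of all genes. The large subunit had 1 called member of 37 and a median of -0.18, and the small subunit 4 of 31 and a median of -0.21.

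**Figure D1:**
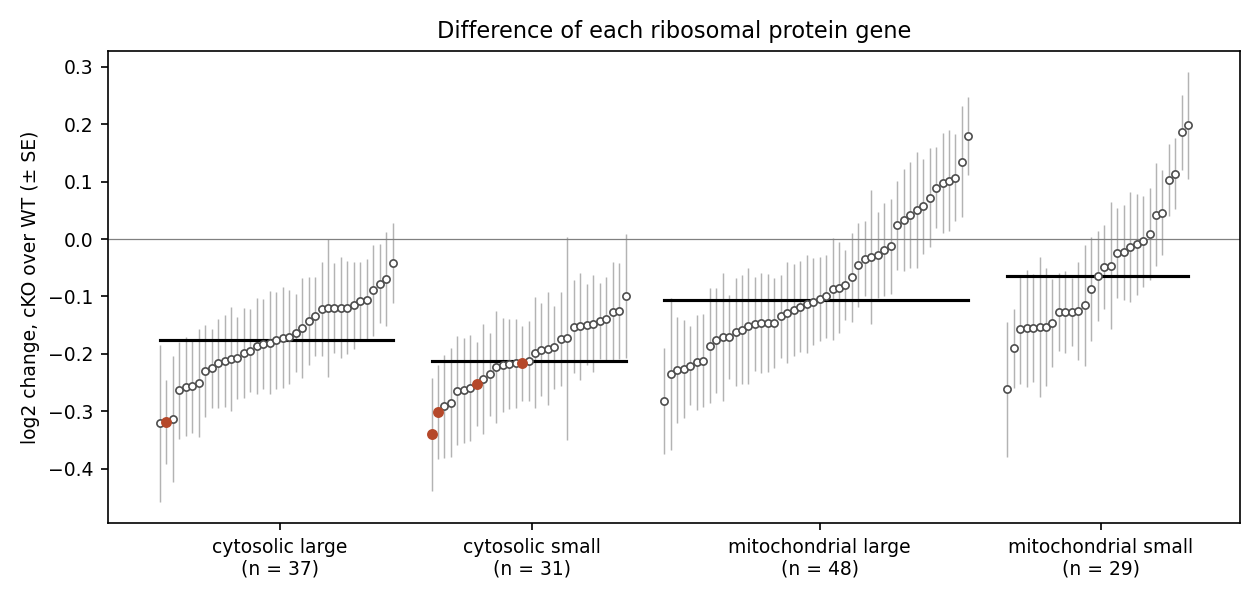
Log2 change of each member on the log2(FPKM + 1) scale, cKO over WT, in 4 columns for the cytosolic and mitochondrial subunits, with bars of 1 SE, black lines at the medians and called members filled. All 68 cytosolic members lie below 0 and the 77 mitochondrial members lie on both sides of it, 58 below.

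Of the called large-subunit members, Rplp2, an acidic protein of the stalk that recruits elongation factors (ENSMUSG00000025508, chr7:141447370-141451585, plus strand, mm10), had 76.3, 84.8 and 89.4 FPKM in cKO libraries, against 102, 100 and 110 FPKM in WT libraries. The 2 groups did not overlap. Its mean of 83.5 ± 6.68 FPKM in cKO was 19.9% below the 104 ± 5.49 FPKM in WT (log2 change -0.32, SE 0.0735, limma adjusted p = 0.0171), and the call held without 3 of the 6 libraries in turn, with an adjusted p of up to 0.0586. Of the 5, it was the only one still called with WT 3 and cKO 1 both left out (limma adjusted p = 0.0430).

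Of the called small-subunit members, Rps29, a zinc-binding protein of the small subunit's head (chr12:69157722-69159186, minus strand) had the largest change, with 276, 330 and 348 FPKM in cKO libraries, against 362, 400 and 443 FPKM in WT libraries. The WT library nearest to the cKO range was WT 1, at 362 FPKM. The log2 change was -0.34 (SE 0.0983, limma adjusted p = 0.0430), or 20.9% lower in mean FPKM. Rps13 (chr7:116331505-116334195, minus strand) had 57.4, 62.5 and 65.2 FPKM in cKO libraries, against 71.3, 72.4 and 85.6 FPKM in WT libraries. WT 3 was the highest, as for Rps29 (log2 change -0.30, SE 0.0824, limma adjusted p = 0.0348).

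Rps28, which lies where the messenger leaves the subunit (chr17:33819027-33824562, minus strand) had 104, 110 and 117 FPKM in cKO libraries, against 124, 129 and 143 FPKM in WT libraries. The groups were apart by less than the range within either group (log2 change -0.25, SE 0.0725, limma adjusted p = 0.0416). Rps2, which lies where the messenger enters it (chr17:24718116-24721929, plus strand) had 244, 248 and 255 FPKM in cKO libraries, against 276, 281 and 312 FPKM in WT libraries (log2 change -0.22, SE 0.0651, limma adjusted p = 0.0491). Its call was lost without each of the 6 libraries in turn, and that of Rps28, Rps29 and Rps13 without 5, 4 and 4 of them. Among the members just outside the threshold were Rpl8 and Rplp1, at limma adjusted p of 0.0509 and 0.0561, and their groups did not overlap either.

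**Figure D2:**
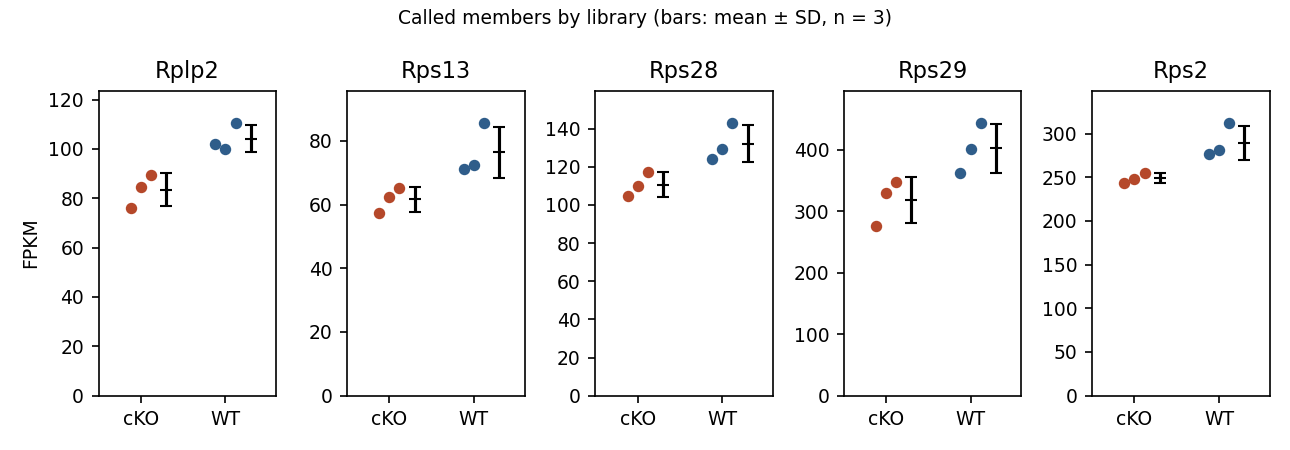
FPKM of the 5 called members in each cKO library and each WT library, with bars for the group mean ± SD. In each panel the 3 cKO libraries lie below the 3 WT libraries, cKO 1 is the lowest and WT 3 the highest.

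The other members of the stalk and the most abundant proteins had lower means in cKO that did not pass the test, and without both WT 3 and cKO 1 the log2 change turned to 0.0098 for Rplp0, 0.0044 for Rps12 and 0.043 for Rpl23a. Rplp1, the partner of Rplp2 in the stalk and the most abundant member at a mean of 938 FPKM over the 6 libraries, had 854 ± 64.8 FPKM in cKO and 1021 ± 84.3 FPKM in WT (SD, n = 3 each). Rplp0, which anchors the stalk to the subunit, had 450 ± 15.6 FPKM in cKO and 476 ± 35.7 FPKM in WT (limma adjusted p = 0.464). Rps12, the most abundant small-subunit member, had 727 ± 29.8 FPKM in cKO and 796 ± 94.0 FPKM in WT (limma adjusted p = 0.332), with WT 3 at 905 FPKM against 741 and 743 FPKM in WT 1 and WT 2. Rps26 had 525 ± 41.1 FPKM in cKO and 632 ± 81.8 FPKM in WT (limma adjusted p = 0.0875). In the order of mean levels over the 6 libraries, Rplp1 was followed by Rps12 (762 FPKM), Rps26 (579 FPKM) and Rps15 (531 FPKM), and the ranges of neighbours overlapped. The median member had 169 FPKM and the lowest was Rpl24, at 0.854 FPKM. This value is uncertain, as Rpl24 shares transcript sequence with 10 other genes. Rpl24 had 0.328, 0.679 and 0.963 FPKM in cKO libraries, against 1.04, 0.827 and 1.28 FPKM in WT libraries, and its groups overlapped (limma adjusted p = 0.136). Rpl23a, the member with the smallest change, had 163 ± 8.79 FPKM in cKO and 167 ± 10.7 FPKM in WT (limma adjusted p = 0.714).

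Paralogs with a related protein gave no call. Rpl22l1, a paralog of Rpl22 whose symbol lies outside the rule, had 13.7, 16.0 and 17.6 FPKM in cKO libraries, against 17.7, 19.8 and 21.1 FPKM in WT libraries (log2 change -0.30, limma adjusted p = 0.0617), and Rpl22 itself had 102 ± 5.97 FPKM in cKO and 110 ± 5.94 FPKM in WT (limma adjusted p = 0.297). Rps27, a small-subunit protein with a zinc finger, had 167 ± 14.8 FPKM in cKO and 201 ± 23.8 FPKM in WT (limma adjusted p = 0.0851), and its paralog Rps27l 30.0 ± 4.50 FPKM in cKO and 32.0 ± 3.20 FPKM in WT (limma adjusted p = 0.558; log2 change 0.078 without both WT 3 and cKO 1). Rps4x, the X-linked copy, had 359 ± 24.2 FPKM in cKO and 409 ± 25.1 FPKM in WT (limma adjusted p = 0.104). Rps4l, annotated as a transcribed processed pseudogene, had 16.4 ± 1.34 FPKM in cKO and 19.2 ± 5.83 FPKM in WT, and WT 1 alone reached 25.5 FPKM (limma adjusted p = 0.532). Rpl3 had 187 ± 9.75 FPKM in cKO and 206 ± 12.99 FPKM in WT (limma adjusted p = 0.205). Rpl39 had 117 ± 10.7 FPKM in cKO and 132 ± 12.6 FPKM in WT (limma adjusted p = 0.204). Rpl10, listed with several symbols and so not a member, had 210, 240 and 240 FPKM in cKO libraries, against 245, 253 and 273 FPKM in WT libraries (limma adjusted p = 0.162). Rpl10l, Rpl39l and Rpl3l were not among the listed genes under these symbols.

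The summed cytosolic level showed how much of the difference rested on single libraries. The 68 members summed to 12520, 13719 and 14142 FPKM in cKO libraries, against 14398, 14790 and 17140 FPKM in WT libraries. The groups did not overlap, and the mean of 13460 ± 841 FPKM in cKO was 12.8% below the 15443 ± 1483 FPKM in WT (SD, n = 3 each). Without cKO 1 and WT 3, the means were 13930 FPKM in cKO and 14594 FPKM in WT, a difference of 4.55%. The members made up 5.33 ± 0.244% of all FPKM in cKO and 5.83 ± 0.440% in WT, and 2.14% to 2.38% of recovered reads in cKO against 2.40% to 2.91% in WT.

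cKO 1 was the lowest library in 67 of 68 cytosolic members, or 98.5%, against 21.2% of all genes. WT 3 was the highest library in 67 of 68, against 23.8% of all genes. The median deviation of members from their own 6-library mean on the log2 scale was -0.20, -0.07 and -0.01 in cKO 1, cKO 2 and cKO 3, against 0.0014, 0.04 and 0.25 in WT 1, WT 2 and WT 3. With both of these libraries left out, the median log2 change was -0.06, 54 of 68 members were below 0 and 1 was called lower. Both cKO 2 and cKO 3 lay below both WT 1 and WT 2 in 37 of 68 members, or 54.4%, against 28.2% of all genes. Over all 6 libraries the groups did not overlap, with cKO lower, in 37 of 68 members, against 18.7% of all genes.

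**Figure D3:**
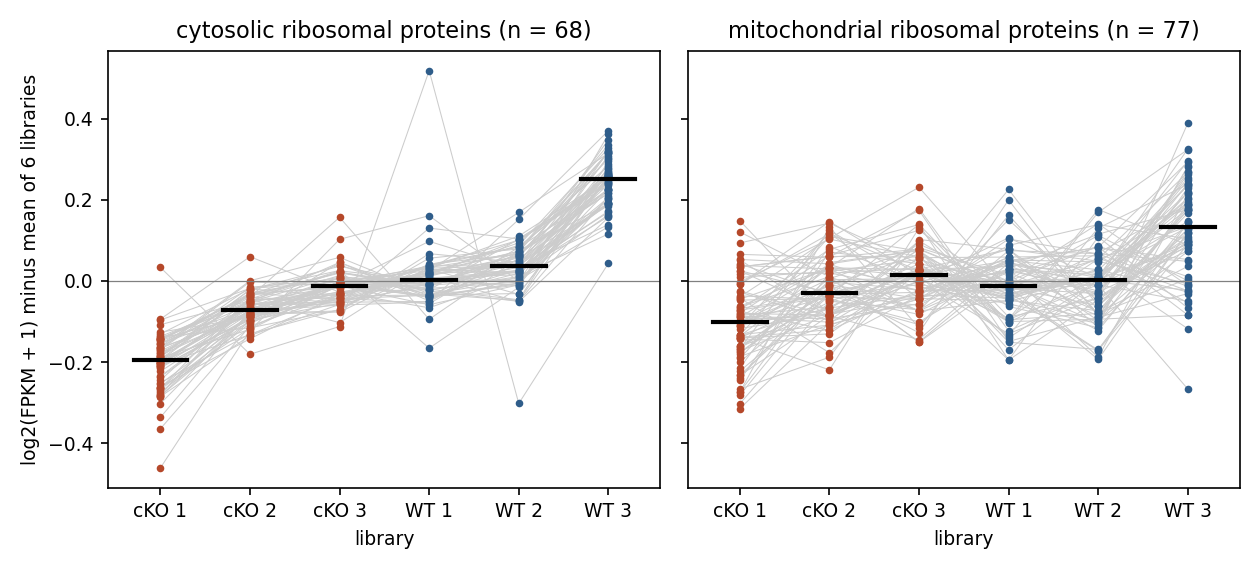
Log2 deviation of each cytosolic and mitochondrial member from its own mean over the 6 libraries, with the median as a bar, for cKO 1 to 3 and then WT 1 to 3; grey lines join the same gene. The cytosolic median is lowest in cKO 1 and highest in WT 3, and the cKO 2, cKO 3, WT 1 and WT 2 medians lie between -0.07 and 0.04. The gene far from the others in WT 1 and WT 2 is Rps4l.

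The mitochondrial members gave no call and a median nearer to 0, a difference from the cytosolic members that was not tested. None of the 77 was called in either direction by limma, against 8.59% of all genes lower and 7.22% higher. At an unadjusted p under 0.05, 8 were lower and 2 higher, smaller shares than the 16.3% and 15.8% of all genes. The log2 change was below 0 for 58 of 77, with a median of -0.10, from -0.28 for Mrpl2 to 0.20 for Mrps6. Of the 77, 14 (18.2%) had every cKO library below every WT library, close to the 18.7% of all genes, and 4 (5.19%) every cKO library above, under the 18.5% of all genes. The large subunit had 36 of 48 below 0 and a median of -0.11, the small subunit 22 of 29 and -0.06. The summed level was 852, 917 and 939 FPKM in cKO libraries, against 920, 927 and 1022 FPKM in WT libraries, whose ranges overlapped, with means of 903 ± 44.9 FPKM in cKO and 956 ± 57.3 FPKM in WT. cKO 1 was lowest in 41 and WT 3 highest in 46 of 77 members, and with both left out the median log2 change was -0.01 and 45 of 77 were below 0.

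Single mitochondrial members gave values as follows. Mrpl2, a conserved core protein of the large subunit, had 10.9, 13.19 and 12.98 FPKM in cKO libraries, against 14.2, 14.6 and 17.0 FPKM in WT libraries, with groups that did not overlap (log2 change -0.28, SE 0.0919, limma adjusted p = 0.0634; -0.13 without both WT 3 and cKO 1). Mrpl57 had 6.54, 6.49 and 7.12 FPKM in cKO libraries, against 7.84, 8.16 and 7.94 FPKM in WT libraries, again without overlap (log2 change -0.22, limma adjusted p = 0.0564). In the opposite direction, Mrpl49 had 16.9, 17.2 and 18.7 FPKM in cKO libraries, against 14.7, 15.4 and 16.1 FPKM in WT libraries (log2 change 0.18, limma adjusted p = 0.0981). Mrps27, Mrps15 and Mrps5 were the other 3 with every cKO library above every WT library, and were named after their values were seen.

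Mrps6, the member with the largest increase, had 17.1, 19.0 and 20.8 FPKM in cKO libraries, against 17.3, 17.4 and 14.4 FPKM in WT libraries, and the groups overlapped (limma adjusted p = 0.169). Mrps18c, 1 of 3 members with an Mrps18 symbol, had 9.15 ± 1.19 FPKM in cKO and 11.2 ± 1.78 FPKM in WT (limma adjusted p = 0.156). The most abundant members were Mrpl42, with 41.7 ± 4.99 FPKM in cKO and 44.2 ± 2.69 FPKM in WT, and Mrpl34, with 36.9 ± 1.61 FPKM in cKO and 39.04 ± 1.20 FPKM in WT. Mrps21 had 31.2 ± 1.95 FPKM in cKO and 34.7 ± 2.82 FPKM in WT, and Mrps16 22.0 ± 0.611 FPKM in cKO and 24.2 ± 0.237 FPKM in WT (limma adjusted p = 0.164). The lowest were Mrpl33, with 2.11 ± 0.0217 FPKM in cKO and 1.84 ± 0.326 FPKM in WT, and Mrps35, with 2.59 ± 0.0734 FPKM in cKO and 2.57 ± 0.134 FPKM in WT (limma adjusted p = 0.953).

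Ribosomal proteins under other symbols and the rest of the translation machinery were read from fixed lists. Of 7 measured ribosomal proteins with other symbols, 0 were called in either direction and the median log2 change was -0.21. Rps3a1 had 246, 151 and 288 FPKM in cKO libraries, against 309, 177 and 375 FPKM in WT libraries, so the library numbered 2 was lowest in each group (limma adjusted p = 0.614). Of 5 mitochondrial subunits without an Mrp symbol, none was called, and Chchd1 had 52.4 ± 2.87 FPKM in cKO and 63.5 ± 7.70 FPKM in WT (log2 change -0.27, limma adjusted p = 0.0633).

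Of 30 translation initiation factors, 2 fell and none rose, with a median of -0.10, when 8.59% of all genes fell. Eif1b, a factor related to the one that helps choose the start codon, had 74.7, 70.7 and 82.0 FPKM in cKO libraries, against 116, 116 and 150 FPKM in WT libraries. Every cKO library lay well under every WT library (log2 change -0.73, SE 0.102, limma adjusted p = 0.00139), and the call held without each library in turn. Eif5 had 71.9 ± 0.834 FPKM in cKO and 84.0 ± 6.11 FPKM in WT (limma adjusted p = 0.0488, up to 0.147 without 1 library). Of 8 elongation factors, Eif5a, which helps ribosomes through difficult peptide bonds, was the only one called, with 98.4, 103 and 107 FPKM in cKO libraries and 120, 117 and 119 FPKM in WT libraries (limma adjusted p = 0.0401). That call was lost without each library in turn. With WT 3 and cKO 1 left out, Eif1b alone was called among these 38 factors.

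Of 56 ribosome biogenesis genes, 2 rose and 0 fell, and the median was -0.03, when 7.22% of all genes rose. Polr1b, a core subunit of RNA polymerase I, had 8.02, 7.72 and 7.74 FPKM in cKO libraries, against 6.18, 6.22 and 6.26 FPKM in WT libraries (log2 change 0.29, limma adjusted p = 0.0157). Dimt1, which methylates the small-subunit ribosomal RNA, had 8.19, 8.41 and 7.92 FPKM in cKO libraries, against 5.99, 6.74 and 6.54 FPKM in WT libraries (log2 change 0.31, limma adjusted p = 0.0182). In both, the cKO libraries stood above all WT libraries. The call held without 3 of 6 libraries for each of them, and neither was called with WT 3 and cKO 1 left out.

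Of 21 regulators of ribosome supply, 3 rose, 1 fell and the median was 0.11, when 7.22% of all genes rose and 8.59% fell. Deptor, an inhibitor of mTOR, rose the most, with 2.55, 2.21 and 2.16 FPKM in cKO libraries, against 0.264, 0.250 and 0.288 FPKM in WT libraries (log2 change 1.38, SE 0.0790, limma adjusted p = 5.58e-06). Mycn, a Myc family transcription factor, had 37.3, 36.3 and 40.5 FPKM in cKO libraries and 31.6, 29.2 and 31.4 FPKM in WT libraries (log2 change 0.30, limma adjusted p = 0.0140). Myc itself fell, with 9.43, 9.34 and 11.2 FPKM in cKO libraries, against 13.8, 11.96 and 14.7 FPKM in WT libraries (log2 change -0.40, limma adjusted p = 0.0190). The Deptor call held without each library in turn, that of Mycn without 5 and that of Myc without 3 of 6. Tsc1, an mTOR pathway inhibitor, was the third that rose (limma adjusted p = 0.0322). With WT 3 and cKO 1 left out, 2 were called higher and 0 lower.

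Of 9 small nucleolar RNA host genes, 3 fell, Snhg15, Snhg1 and Snhg8, when 8.59% of all genes fell. The median was -0.11 over the list. Snhg15 had 2.15 ± 0.257 FPKM in cKO and 3.29 ± 0.338 FPKM in WT (limma adjusted p = 0.0130). Snhg1 had 7.15 ± 0.391 FPKM in cKO and 9.05 ± 0.911 FPKM in WT (limma adjusted p = 0.0371), and Snhg8 13.6 ± 0.691 FPKM in cKO and 16.4 ± 1.07 FPKM in WT (limma adjusted p = 0.0435). None of the 9 was called with WT 3 and cKO 1 left out. Of 32 mitochondrial translation and assembly factors, 1 rose and 1 fell, when 7.22% of all genes rose and 8.59% fell. Mtrf1l, a release factor, rose to 3.72 ± 0.110 FPKM in cKO, against 2.57 ± 0.338 FPKM in WT (limma adjusted p = 0.0155). Ddx28, a helicase of large-subunit assembly, fell to 4.62 ± 0.645 FPKM in cKO, against 6.33 ± 0.517 FPKM in WT (limma adjusted p = 0.0261). Neither was called with WT 3 and cKO 1 left out.

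Most transcripts of mitochondrial DNA, which the mitochondrial ribosome reads or is built on, were called lower in cKO libraries, but the most abundant was not. Whether their reads were shared with copies elsewhere in the genome was not tested. Of 15 listed, 13 for respiratory chain proteins and 2 for ribosomal RNAs, 11 fell and 0 rose, when 8.59% of all genes fell, with a median log2 change of -0.46 and 15 of 15 below 0. Without both WT 3 and cKO 1, 10 were called lower, as with the length and GC correction, and 7 without cKO 1. COX2, a subunit of cytochrome c oxidase, fell the most, with 39.1, 45.1 and 43.8 FPKM in cKO libraries, against 62.1, 71.5 and 83.7 FPKM in WT libraries (log2 change -0.74, SE 0.102, limma adjusted p = 0.00125). COX3, of the same enzyme, had 39.3, 46.7 and 46.0 FPKM in cKO libraries, against 62.7, 73.2 and 80.5 FPKM in WT libraries (log2 change -0.70, limma adjusted p = 0.00138). ATP8, a subunit of ATP synthase, had 36.0, 38.9 and 45.5 FPKM in cKO libraries, against 56.3, 66.6 and 76.1 FPKM in WT libraries (log2 change -0.71, limma adjusted p = 0.00289). In all 3 every cKO library lay below every WT library, and the call held without each library in turn. ATP6, ND4L, ND3 and ND5 also kept their call without each library in turn, and ND1, ND6 and ND2 kept it in 2 of these 6 fits. The most abundant, COX1, had 3832, 4498 and 4457 FPKM in cKO libraries, against 4580, 4688 and 4602 FPKM in WT libraries (limma adjusted p = 0.286), and CYTB and ND4 did not pass either. Of the ribosomal RNAs, mt-Rnr2, that of the large subunit, had 723, 990 and 894 FPKM in cKO libraries, against 1236, 1150 and 1642 FPKM in WT libraries, without overlap (log2 change -0.62, SE 0.144, limma adjusted p = 0.0195), and lost its call without cKO 1 (0.0618). mt-Rnr1, that of the small subunit, had 466 ± 48.3 FPKM in cKO and 531 ± 89.0 FPKM in WT (limma adjusted p = 0.2996).

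Many cytosolic members share sequence with near-identical copies elsewhere in the genome. Of the 50-base stretches of a cytosolic member's annotated transcripts, a median of 76.1% occurred in no other gene (range 15.95% to 100%), against 97.1% for mitochondrial members. Levels of members such as Rpl35 (15.95%), Rpl23a (19.2%), Rpl24 (48.2%) and Rps2 (57.0%) are therefore uncertain. How the authors treated reads that map to several places is not given in the sources used here. With members under 75% unique left out, 38 cytosolic members remained, all 38 below 0, with a median of -0.18.

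Processed pseudogenes of cytosolic ribosomal proteins, which are spliced copies inserted elsewhere in the genome, gave more calls. Those listed under a -ps symbol numbered 65, from 41 parent genes. Of these, 44 were called lower and 0 higher, when 8.59% of all genes fell and 7.22% rose. The median log2 change was -0.45 (all genes 0.0017) and 65 of 65 were below 0. They summed to 340, 372 and 391 FPKM in cKO libraries, against 502, 518 and 586 FPKM in WT libraries. The groups did not overlap, and the summed mean was 31.4% lower in cKO. Over all 589 processed pseudogenes that are no members, 9 were higher and 232 lower, with a median of -0.31. The 589 include these 65, and any ribosomal protein copies under other symbols were not set apart. The difference between pseudogenes and members was not tested, and whether reads of parent genes entered these values was not tested.

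The pairs below show how near a copy is to its parent, as 60 bases of the coding part from GENCODE M21 transcripts (GRCm38), 5′ to 3′ on the strand of each gene, with capitals at the bases that differ.
Rpl28-ps3, chr4:126069867-126070259, minus strand: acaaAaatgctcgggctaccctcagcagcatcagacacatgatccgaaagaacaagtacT
Rpl28, chr7:4792874-4795066, plus strand: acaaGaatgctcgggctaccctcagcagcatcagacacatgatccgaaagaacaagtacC
Rpl31-ps10, chr4:137395299-137395676, plus strand: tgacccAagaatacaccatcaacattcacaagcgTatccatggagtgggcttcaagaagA
Rpl31, chr1:39367842-39371911, plus strand: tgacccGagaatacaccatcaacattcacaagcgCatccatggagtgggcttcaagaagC

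The coordinates are those of the whole gene. The 60 bases differ at 2 positions in the first pair and 3 in the second, and over the aligned coding part the 65 copies had a median identity of 99.1% to the parent (82.4% to 100%), the lowest being that of Rpl39-ps, of which only 17 coding bases were aligned. Rpl28-ps3 had 6.02, 7.54 and 6.37 FPKM in cKO libraries, against 12.7, 14.0 and 17.4 FPKM in WT libraries (log2 change -1.03, limma adjusted p = 0.000356). Rpl31-ps10 had 0.783, 0.218 and 1.14 FPKM in cKO libraries, against 3.05, 3.04 and 3.50 FPKM in WT libraries (log2 change -1.33, limma adjusted p = 0.000948). In each, all cKO libraries lay below all WT libraries. Without both WT 3 and cKO 1, 24 of the 65 were called lower.

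**Figure D4:**
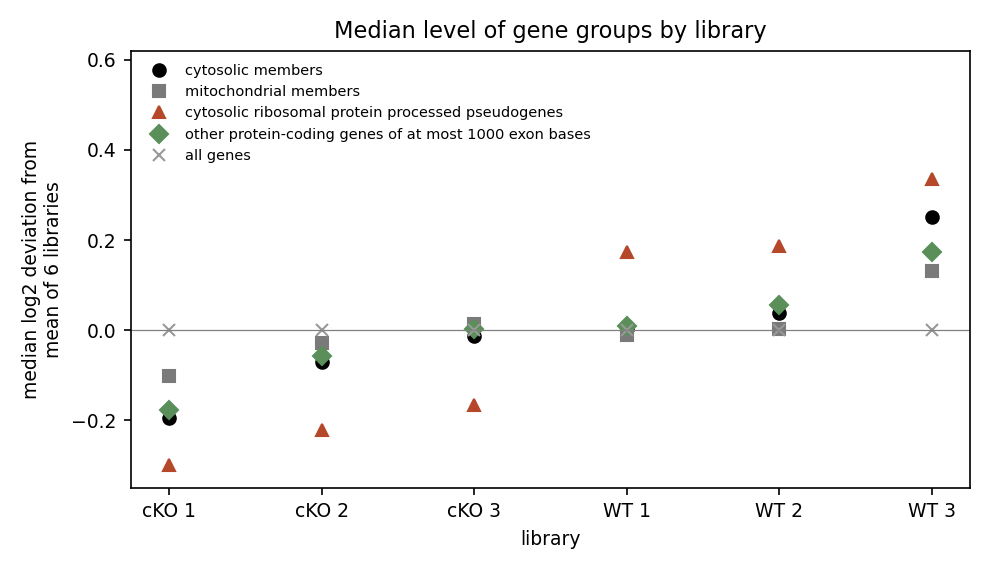
Median log2 deviation from the 6-library mean for cytosolic members, mitochondrial members, cytosolic ribosomal protein processed pseudogenes and other protein-coding genes of at most 1000 exon bases, by library, with all genes as crosses. The 4 medians are lowest in cKO 1 and highest in WT 3, and for the pseudogenes the cKO medians are -0.17 or lower and the WT medians 0.17 or higher.

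Other measures of the libraries moved with the cytosolic members. The 190 other protein-coding genes of at most 1000 exon bases had median log2 deviations of -0.18, -0.06 and 0.00 in cKO 1, cKO 2 and cKO 3, against 0.01, 0.06 and 0.17 in WT 1, WT 2 and WT 3. Over all genes the median log2 change was -0.20 at up to 1000 exon bases, -0.08 above 1000 and up to 2000, -0.02 above 2000 and up to 4000, 0.03 above 4000 and up to 8000 and 0.06 above 8000, and the median exon length was 1806 bases for cytosolic and 2533 for mitochondrial members, against 4229 over all genes. A correction for exon length and GC content gave a cytosolic median of -0.12, with 64 of 68 below 0 and 7 called lower. The sum of all FPKM ran 247355, 253927 and 255491 in cKO libraries and 260100, 263015 and 270433 in WT libraries, and scaling every library to the same sum gave a cytosolic median of -0.12, with 67 of 68 below 0, and a mitochondrial median of -0.04, with 45 of 77 below 0.

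**Figure D5:**
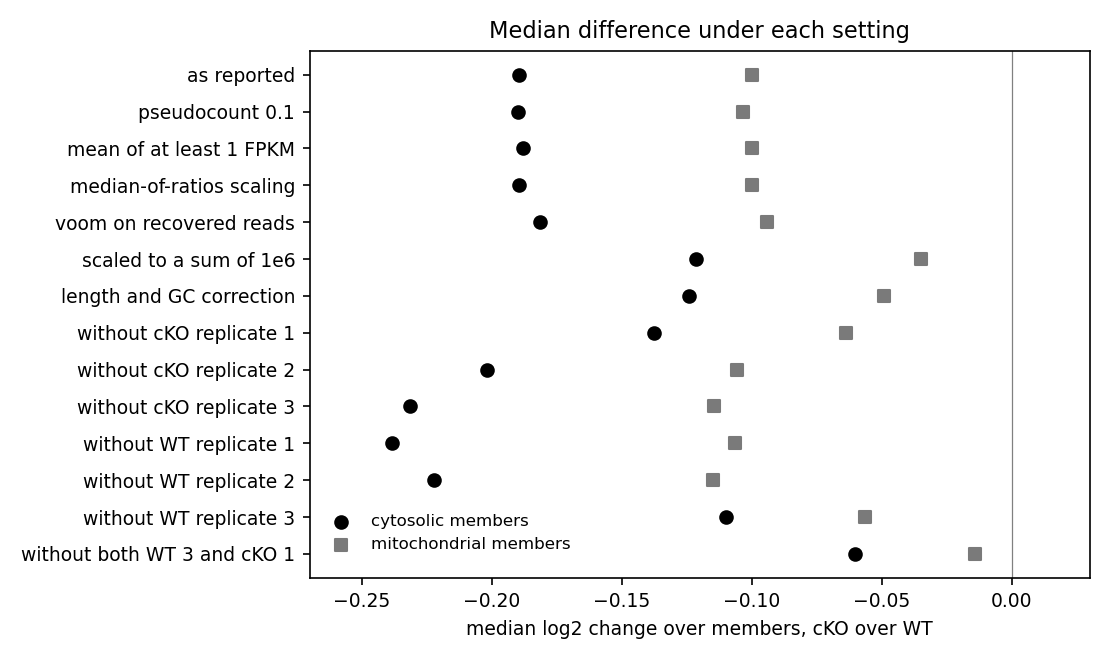
Median log2 change, cKO over WT, over the 68 cytosolic and 77 mitochondrial members as reported and under the settings named on the axis. All points lie below 0, and the nearest to 0 are those without both WT 3 and cKO 1, at -0.06 and -0.01. Median-of-ratios scaling used the same factor, 1.003, in every library, so its points repeat those as reported.

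Some cell type markers also differed between the groups. Over all genes, 8.59% fell and 7.22% rose. Of 7 astrocyte markers 6 fell, and the 7 summed to 78.1 to 95.4 FPKM in cKO libraries and 121 to 154 FPKM in WT libraries. Of 8 microglia markers 4 fell (13.7 to 20.1 FPKM in cKO and 23.5 to 27.4 FPKM in WT), and of 10 markers of dividing cells 5 rose (77.7 to 94.6 FPKM in cKO and 71.6 to 78.9 FPKM in WT). Of 8 interneuron markers 3 fell (82.5 to 93.6 FPKM in cKO and 105 to 115 FPKM in WT), and of 9 markers of radial glia and intermediate progenitors 2 rose, 1 fell and 7 had a log2 change above 0, with a median of 0.18. Their sum ran the other way (343 to 448 FPKM in cKO and 538 to 544 FPKM in WT), and Fabp7, the 1 that fell, made up most of it (312 ± 47.5 FPKM in cKO and 454 ± 4.25 FPKM in WT). Of 5 measured erythroid markers 1 fell (68.0 to 85.7 FPKM in cKO and 86.3 to 90.7 FPKM in WT). Of 5 oligodendrocyte lineage markers 2 fell (41.2 to 50.5 FPKM in cKO and 56.5 to 64.3 FPKM in WT), and of 6 endothelial markers 0 were called (31.6 to 35.4 FPKM in cKO and 32.0 to 38.5 FPKM in WT). Of 8 projection neuron markers 3 fell, and of 2 measured choroid plexus markers 1 fell (1.24 to 3.34 FPKM in cKO and 1.99 to 2.56 FPKM in WT). No listed marker was at 0 in both groups. Their part in the ribosomal protein difference was not tested.

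The depth limits low members. Cytosolic members had 8 to 85871 recovered reads per library, with a median of 6711, and mitochondrial members 144 to 4104, with a median of 553. The lowest was Rpl24, which also shares sequence with other genes.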

How the data were processed

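RNA was extracted with Trizol and sequenced from TruSeq RNA libraries of 6 neocortices, 3 cKO and 3 WT, grouped by sample title. The titles carry 6 different animal codes, but nothing else says that replicates were separate animals, so the p-values measure the spread between these samples. The deposited values were FPKM, computed by the authors, per the file headers. The median over genes of the ratio to the gene's geometric mean was 1.003 in every library. The values therefore already lay on a common scale by this median-of-ratios measure, although their sums differed. The submitters' processing notes name bcl2fastq 1.8.4, STAR 2.5.4b, featureCounts 1.6.1, R 3.4.1, DESeq2 1.22.1 and build mm10. Neither the gene annotation, nor the strand setting, nor how reads mapping to several places or low values were treated is given in the sources used here. After 139 blank lines were dropped, 15703 genes remained. By identifier, 15655 genes matched GENCODE M21, which gave coordinates, exon lengths and transcripts.

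Counts had been allowed for in the design; for FPKM values, limma 3.58.1 (R 4.3.3) was instead fitted on log2(FPKM + 1) over all genes with genotype as the only term, a mean-variance trend and robust moderation. P-values were adjusted by the Benjamini-Hochberg method over 15703 genes, with a threshold of 0.05. Fold changes on this scale understate the change of low genes. Depth was recovered as the library size at which FPKM times exon length gave whole reads: 94.6% to 95.6% of low values lay within 0.1 of a whole read. The reads so recovered in listed genes exceeded that size in every library. Recovered reads, their percentages and the fit on reads in place of FPKM are therefore approximate. The tests were tried on simulated data first. Python 3.11.15, pandas 2.3.3, numpy 2.4.6, Biopython 1.88 and mgcv 1.9.3 were also used.

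The members and gene lists were chosen with earlier results of these data known. Named genes were Tcf4, the called members, the highest, lowest, most raised and most lowered members of each subunit, paralogs, and up to 3 called genes of each other list. Some members are not reported here by name. List genes that the table gives under another symbol, as for mitochondrial DNA, were matched by their GENCODE symbol. Members just outside the threshold, mitochondrial transcripts beyond the rule and the example pseudogenes were named after their values were seen. A further 10 ribosomal protein genes listed with several symbols lie outside the rule. With these added, the cytosolic median was -0.19 and 77 of 78 lay below 0. Alternatives were other pseudocounts, filters, scalings, corrections, reads in place of FPKM and libraries left out.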

Additional observations from a re-analysis of the deposited data

How the results depend on the processing

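Of the cytosolic members called lower, 5 as reported, 12 were called by voom on recovered reads, 3 after scaling to a sum of 1e6, 3 of 33 with members that have a listed pseudogene left out, and 1 without trend and robust moderation. Scaling to a sum of 1e6 gave 2 mitochondrial members called higher and 1773 genes called higher over all. The length and GC correction gave 2 mitochondrial members higher and 1 lower. Leaving out 1 library gave 0 to 6 cytosolic members lower, with 0 without cKO 1 or cKO 2, 1 without WT 3, 2 without WT 1 or WT 2 and 6 without cKO 3. It gave 0 to 2 mitochondrial members lower, 544 to 1572 genes higher and 830 to 1517 lower over all (544 and 830 without WT 1, 566 and 830 without cKO 1, 578 and 839 without cKO 2), and medians of -0.24 to -0.11 (cytosolic) and -0.11 to -0.06 (mitochondrial). Without both WT 3 and cKO 1, chosen after seeing the data, 1 cytosolic member was lower, the cytosolic median was -0.0602 and the mitochondrial median -0.0140, and 482 genes were higher and 823 lower over all. Fewer samples were tested in these fits; the cause of the other changes was not tested. The labels do not say whether the replicate numbers pair the libraries. In deviations from the group mean, same-numbered libraries correlated at -0.043, 0.109 and -0.038, and cKO 3 correlated best with WT 1, at 0.223. With 3 libraries per group, these values cannot exclude a pairing. With the replicate block, 38 cytosolic and 2 mitochondrial members were lower; with the block and the length and GC correction, 26 cytosolic members were lower and 2 mitochondrial members higher. The cytosolic and the mitochondrial median kept their sign under every alternative run, but some alternatives could not have changed it. Median-of-ratios scaling had the same factor, 1.003, in every library. The replicate block and the fit without trend and robust moderation do not alter the log2 change. Of the genes named, 9 that did not pass the test changed sign in log2 change under at least 1 alternative. With the length and GC correction, alone or with the replicate block, Rpl23a was at 0.0912, Mrpl34 at 0.0963, Rps27l at 0.0227, Mrps21 at 0.0164 and Mrps35 at -0.0406. Without both WT 3 and cKO 1, Rps27l was at 0.0775, Rpl23a at 0.0430, Rplp0 at 0.00976, Rps12 at 0.00443 and Mrps35 at -0.0116. Rpl23a was at 0.0267 after scaling to a sum of 1e6. With 1 library left out, the range was -0.0848 to 0.00629 for Rpl23a, -0.202 to 0.00929 for Rps27l, -0.367 to 0.0429 for Rps4l, -0.145 to 0.0133 for Mrpl42 and -0.0117 to 0.0392 for Mrps35.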

Other observations

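Rpl29, a large-subunit protein listed with several symbols and so outside the rule, had 196, 122 and 220 FPKM in cKO libraries, against 132, 139 and 146 FPKM in WT libraries. Of the 78 cytosolic ribosomal protein genes with those 10 added, it was the 1 with a log2 change above 0 (0.32, SE 0.192, limma adjusted p = 0.286). cKO 2 was the lowest of the 6 libraries and the other cKO libraries were the highest. Rps3a1 also differed by library number, with cKO 2 at 151 FPKM and WT 2 at 177 FPKM below the other 4 libraries, at 246 to 375 FPKM. Both genes were singled out after their values were seen, and of the 50-base stretches of Rpl29 64.5% occurred in no other gene.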
